A study of Mus musculus with 12 samples.

Results

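Messenger RNA levels of male mouse germ cells were compared between an early and a late stage of their development in the animal. The comparison set 3 arrays of round spermatids against 3 arrays of primordial germ cells (PGCs), 6 of the 12 arrays of the series. The arrays were chosen by their titles alone. The other 6 arrays hold the in vitro counterparts of both stages and did not enter the fit. PGCs came from the genital ridges of male BDF1 fetuses at E12.5, counted in days of embryonic development, and round spermatids from the testes of BDF1 mice at 3 weeks of age. Per the labels, both cell types were collected by FACS, without a named gate, as biological replicates, total RNA was extracted with TRIZOL and biotin-labelled RNA was hybridized to Affymetrix 3' expression arrays. The labels do not say how many animals were pooled for an array. No transgene, allele or drug treatment is named for either group.

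PGCs are the embryonic founders of the germline. At this fetal age they have settled in the gonad, still divide, express much of the pluripotency network and are passing through genome-wide erasure of DNA methylation. Round spermatids are the haploid cells that follow meiosis. They no longer divide, build the acrosome and the flagellum, and make and store the transcripts of the proteins that will later replace histones in the condensing sperm nucleus.

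Values are linear signals per probe set in intensity units, scaled by the authors to a common level on each array. A gene is represented by its brightest probe set, values under 30.7 units, the 25th percentile of the table, were set to that floor, and log2 changes are round spermatids minus PGCs. Calls needed a limma p under 0.05 after Benjamini-Hochberg adjustment over all genes tested and a change of at least 2-fold, and "rose", "fell", "higher" and "lower" are used only of called genes. Probe sets bind with unlike strength, so levels are compared between stages and not between genes. Where a lower array lay at the floor, a fold is "at least" if mean signals gave a larger ratio, and otherwise both ratios are given. Array medians lay between 73.2 and 99.9 units. Round spermatid replicate 1 stood apart with 22.1% of probe sets under the floor, against 26.4% to 27.8% on the other 5 arrays. Without it 4317 genes were higher and 5110 lower, close to the counts from all 6 arrays given below. Pearson's r across genes (no independent replicates) was 0.986 to 0.987 within PGCs, 0.974 to 0.983 within round spermatids and 0.218 to 0.230 between the stages.

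Marker genes bore out both labels. The summed signal of 8 round spermatid markers (Acrv1, Spaca1, Tnp1, Prm1, Prm2, Odf1, Tssk6 and Acr) was 272 to 433 units in PGCs and 145034 to 156872 in round spermatids. The 7 PGC markers on the arrays summed to 61310 to 65206 units in PGCs and 14268 to 15006 in round spermatids, where Ddx4 made up most of the sum. Ddx4, a germline RNA helicase gene that both stages use, was at 7054, 7709 and 7219 units in PGCs and at 11878, 11052 and 11210 in round spermatids.

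The stages differed across most of the transcriptome. Of 12953 genes tested, 4381 (33.8%) were higher in round spermatids and 5033 (38.9%) were lower, 72.7% in either direction by limma. Rises were fewer but larger, with a median log2 change of 2.92 against -2.34 for falls. At 16-fold or more there were 1481 rises and 505 falls, and at 128-fold or more 465 rises and 8 falls. The array values of the stages did not overlap for 11624 genes (89.7%). All list counts below are to be read against 33.8% and 38.9%. They cover members that passed a filter on low signals, some genes are in several lists, and a gene that passed only through the stage where it is high had to differ. With 3 arrays a group an exact permutation test of a single gene cannot give a p under 0.1, so p values come from the fit across all genes, and they measure the spread between these arrays.

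Array scaling bears on the balance of rises and falls. The poly-A spikes, bacterial RNAs added before labelling, averaged 8.89 on the log2 scale in PGCs and 7.10 in round spermatids (difference -1.79, two-sided exact permutation p = 0.1, the smallest possible). If the arrays are scaled to these spikes, a choice made after seeing the data, the median change of all genes moves from -0.25 to 1.53 and the counts become 7450 higher and 1855 lower. The amount of spike per cell or per RNA is not given in the sources used here, and the part of total RNA per cell in these counts was not tested. Changes below are on the authors' scale. Lists, families and chromosomes whose median changes sign under the spikes are marked. The log2 ratio of 3' to 5' probe sets was -0.40 in PGCs and 0.13 in round spermatids for Gapdh (exact permutation p = 0.1) and 0.56 and 0.48 for Actb (p = 0.3), and its part in any result was not tested. In such bulk samples fewer cells of a type and less RNA per cell cannot be told apart.

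**Figure D1:**
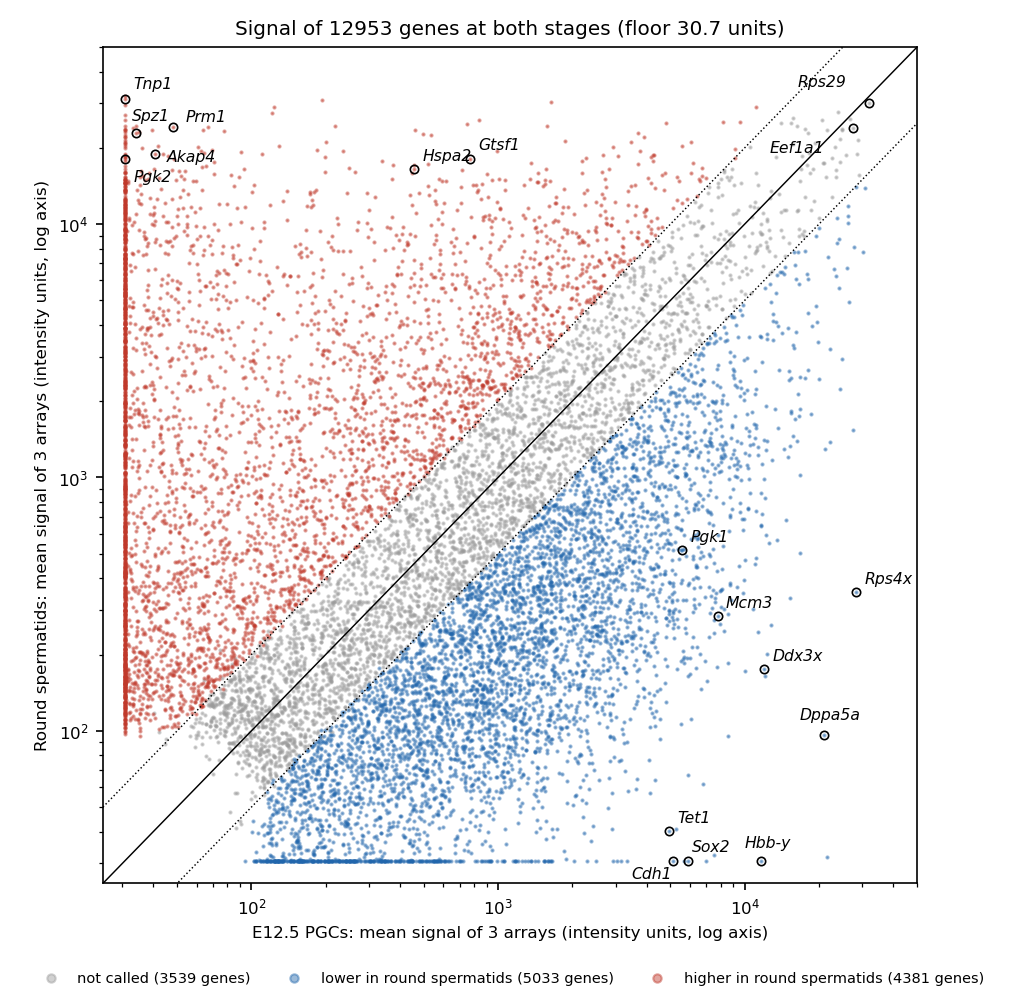
Mean signal of each of 12953 genes in PGCs (x axis) and round spermatids (y axis), in intensity units on log axes, with means under the floor drawn at 30.7 units; the solid line marks equal signal and the dotted lines a 2-fold difference. The 4381 higher genes include many that go from near the floor to the brightest signals, while few of the 5033 lower genes go from a high signal to the floor; scaled to the poly-A spikes, 7450 are higher and 1855 lower.

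The pluripotency network fell nearly as a whole. Of 28 listed genes 25 passed the filter on low signals, and 22 of these fell, 1 rose and 2 were not called (median log2 change -5.21). Dppa5a, a marker of pluripotent and germ cells, was at 20389, 20265 and 22403 units in PGCs and at 124, 85.5 and 79.8 in round spermatids, a 222-fold fall (log2 -7.79, SE 0.16, limma adjusted p = 5.05e-09). L1td1, an RNA-binding protein gene of embryonic stem cells, fell at least 221-fold from 6521 to 7372 units. The pluripotency factor gene Sox2 was at 5925, 6083 and 5686 units in PGCs and at the floor on all spermatid arrays, at least 192-fold lower. The groups were far apart in each of these genes, and no spermatid array came near a PGC array.

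Klf4, which encodes a reprogramming factor that is also a known gene of postmeiotic germ cells, was the exception. It was at 673, 630.4 and 680.3 units in PGCs and at 8396, 8266 and 7846 in round spermatids, a 12.4-fold rise (log2 3.63, SE 0.06, limma adjusted p = 1.56e-09). Its relatives Klf5 (log2 -0.55) and Klf2 (log2 0.30) were under the 2-fold limit.

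Genes of PGC specification and of the gonadal germ cell followed, with 17 of 23 lower, 5 higher and 1 not called (median -3.65). Dppa3, which protects methylation in the early embryo, was at 20850 to 22005 units in PGCs and at 7.60, 74.5 and 13.2 in round spermatids, at least 520-fold lower. Rhox5, an X-linked homeobox gene, fell 63.6-fold, Ifitm1, which encodes a membrane protein of migrating PGCs, 45.8-fold, and Prdm1, a repressor of somatic genes in PGCs, 47.6-fold. The spermatid arrays of Rhox5 lay at 278, 137 and 103 units and those of Prdm1 at 83.2, 41.8 and 31.1, with replicate 1 the highest in both. The 5 rises were Tex13a (37.2-fold), Sox17, the bromodomain gene Brdt, Nr6a1 and Tex101, several of which are known for later use in the testis.

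Receptors, ligands and transducers of signals to PGCs were lower in 23 of 29 and higher in none, with 6 not called (median -3.19). The Nodal antagonists Lefty1 and Lefty2 fell 67.5-fold (57.9-fold from mean signals, with 1 spermatid array at the floor) and at least 64.5-fold. Ptch1, the Hedgehog receptor gene, fell 40.6-fold, from 4055, 4075 and 4308 units to 99.9, 85.3 and 125. Cxcr4, the chemokine receptor that guides PGC migration, fell at least 36.8-fold. Kit fell 10.9-fold and the gene of its ligand, Kitl, 5.95-fold. Stat3 (log2 0.45), which carries LIF signals, and Smad1 (log2 0.24) were not called.

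**Figure D2:**
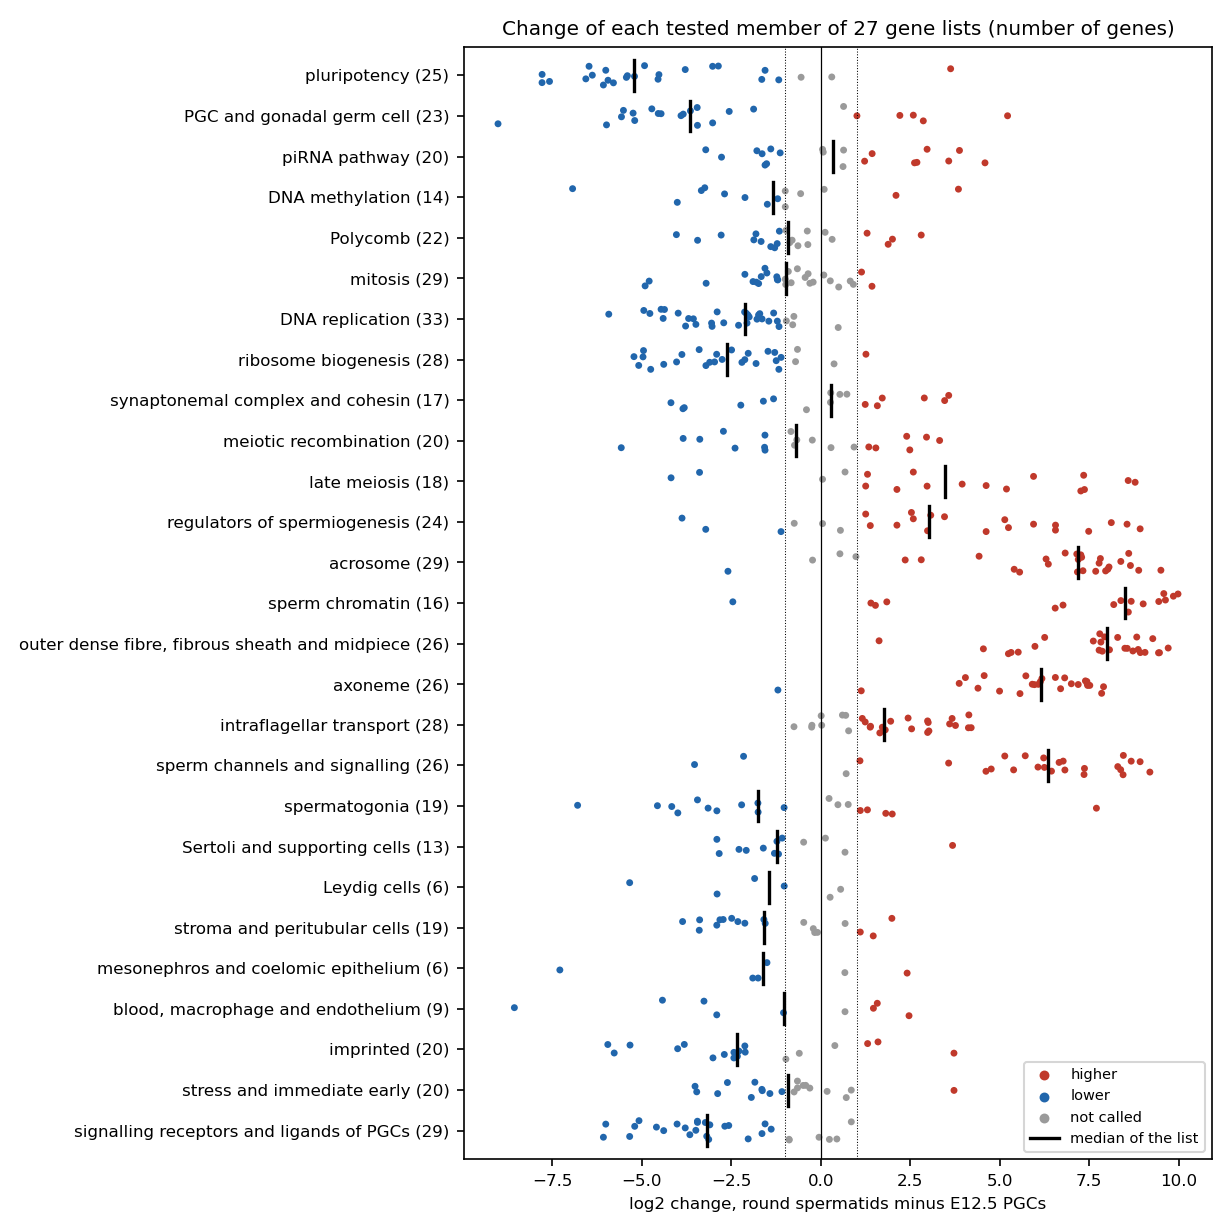
Log2 change (round spermatids minus PGCs) of every tested member of 27 gene lists, 1 point a gene, coloured by its call, with a bar at each list's median and dotted lines at 2-fold. Lists of pluripotency, replication and ribosome biogenesis lie mostly left of 0 and those of the acrosome, sperm chromatin and tail right of it, with meiotic prophase lists on both sides; the medians of these lists keep their sign under the poly-A spikes except that of recombination (-0.70 and 1.09).

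Cell division genes separated by their role in the cycle. DNA replication genes fell in 29 of 33 and rose in none (4 not called, median -2.13). Under the poly-A spikes 15 were lower, 3 higher and 15 not called (median -0.34). Pola1, an X-linked gene for the catalytic subunit of polymerase alpha, fell at least 60.8-fold, and the licensing factor gene Cdt1 fell 30.9-fold. Mcm3, a subunit of the replicative helicase, was at 7944, 7591 and 7743 units in PGCs and at 264, 322 and 266 in round spermatids, a 27.4-fold fall. Rfc5, a clamp loader subunit, fell 22.1-fold. Pcna, the clamp itself, fell 2.25-fold and Mcm7 missed the limit (log2 -0.96), so members of the same machine fell by unlike amounts.

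Mitosis genes had 13 of 29 lower, near the share of all genes, 2 higher and 14 not called (median -0.98, and 0.81 under the poly-A spikes). Cenpa, the centromeric histone, fell 30.1-fold, the checkpoint gene Mad2l1 27.8-fold, the S and G2 phase cyclin gene Ccna2 9.23-fold and its kinase gene Cdk1 4.36-fold. Ccnb2 (log2 0.50) and Plk1 (log2 0.91), which act at the G2 to M transition of both kinds of division, were not called. Aurka rose 2.20-fold and Nuf2, of the outer kinetochore, 2.69-fold.

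Ribosome biogenesis fell with replication. Of 28 genes 24 fell, 1 rose and 3 were not called (median -2.63), and under the poly-A spikes 14 were lower and 4 higher (median -1.045). Mycn, a growth-driving transcription factor gene, was at 4879, 4984 and 4552 units in PGCs and at 146, 103 and 141 in round spermatids, a 37.4-fold fall. Nop56, a core protein of box C/D small nucleolar particles, fell 34.1-fold, Rrs1, needed for the large subunit, 31.3-fold, and Dkc1, the X-linked pseudouridine synthase gene, 31.0-fold. Npm1, an abundant nucleolar protein gene, fell 2.25-fold. Wdr12 was the single rise (log2 1.26).

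In the DNA methylation list 8 of 14 genes fell, 2 rose and 4 were not called (median -1.35, and 0.41 under the poly-A spikes). Tet1, a methylcytosine oxidase that acts during PGC reprogramming, was at 4862, 5264 and 4708 units in PGCs and at 40.2, 42.0 and 38.7 in round spermatids, a 123-fold fall (log2 -6.94, SE 0.10, limma adjusted p = 1.23e-09). Dnmt1, the maintenance methyltransferase gene, fell 9.47-fold, and Tet2 fell 10.1-fold (10-fold from mean signals, with 1 spermatid array at the floor). Zbtb33, an X-linked gene for a methyl-CpG binding protein, fell 16.1-fold. Uhrf1, the partner of Dnmt1, was at 1972 to 2263 units in PGCs and 2015 to 2384 in round spermatids, and these ranges overlap. Dnmt3l rose at least 14.4-fold to 590 to 754 units, and Mbd2 rose 4.29-fold.

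Polycomb genes had 10 of 22 lower, 4 higher and 8 not called (median -0.92, and 0.87 under the poly-A spikes). Rnf2, the catalytic ubiquitin ligase of Polycomb complex 1, fell 16.4-fold, and Jarid2 and Suz12, of complex 2, fell 10.9-fold and 6.90-fold, while Ezh2 was not called (log2 -0.36). Ring1, the relative of Rnf2, rose (log2 1.29), and Phf1, an accessory subunit of complex 2, rose 6.99-fold. Imprinted genes fell in 14 of 20 tested, from 26 on the arrays, with 3 higher and 3 not called (median -2.36). Under the poly-A spikes 7 imprinted genes were lower and 5 higher (median -0.61). Mest, Peg3 and Plagl1, which are expressed from the paternal allele in the embryo, fell 62.0-fold, 54.7-fold and, with 1 spermatid array at the floor, 40.3-fold (39.5-fold from mean signals). Slc38a4 went from 530 to 600 units to 3.89 to 44.6, with 2 spermatid arrays under the floor. Rasgrf1, Asb4 and Cdkn1c rose, the first from 141, 15.5 and 37.9 units to 675, 787.5 and 708.

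The piRNA pathway, which silences transposons at both fetal and postnatal stages, had members on both sides. Of 20 genes 8 rose, 8 fell and 4 were not called, near the shares of all genes, and under the poly-A spikes 12 were higher and 2 lower. Gtsf1, required for piRNA function, was at 727, 609 and 967 units in PGCs and at 18484, 18226 and 17658 in round spermatids, a 24.0-fold rise (log2 4.59, SE 0.15, limma adjusted p = 4.89e-08). Henmt1, which methylates piRNA ends, rose at least 14.7-fold, and the Tudor gene Tdrd7, of the spermatid chromatoid body, 11.9-fold. Tdrd5 fell 9.30-fold. Among the Piwi proteins themselves, the fetal gene Piwil4 fell at least 6.85-fold and Piwil2 2.64-fold, while Piwil1, the adult partner, rose 7.83-fold from 93.9 to 122 units to 732.5 to 1010. Ddx4, Rnf17, Tdrd12 and Mybl1 were not called.

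Meiotic prophase genes likewise lay on both sides of 0. Of 17 genes of the synaptonemal complex and cohesin 6 rose, 6 fell and 5 were not called, and of 20 recombination genes 6 rose, 8 fell and 6 were not called (median -0.70, and 1.09 under the poly-A spikes). Within cohesin the mitotic subunit genes Rad21 and Smc1a fell 18.2-fold and 14.1-fold, and the meiotic ones Rec8 and Smc1b rose by 3.46 and 1.58 on the log2 scale. Trip13, which removes HORMA proteins from chromosomes, fell 14.5-fold, and Syce3, a central element protein, rose 11.9-fold.

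Among recombination genes, Mnd1, a partner of the strand exchange enzymes, fell at least 47.8-fold from 1430 to 1625 units. Exo1, a nuclease, fell 14.4-fold, and Mei4, needed for double-strand breaks, fell 10.4-fold. Msh4, which stabilizes crossover intermediates, rose 9.98-fold, from 67.4, 52.4 and 74.5 units to 508, 771 and 666. Late meiosis genes rose in 14 of 18, with 2 lower and 2 not called (median 3.46). The sperm surface genes Adam3 and Adam2 rose at least 441-fold and 385-fold, Ldhc, the germ cell lactate dehydrogenase gene, 165-fold, and Ccna1, the cyclin of the meiotic divisions, at least 163-fold. The summed signal of 8 spermatocyte markers was 5588 to 6502 units in PGCs and 26833 to 27741 in round spermatids, where the chaperone gene Hspa2 made up 16248 to 17016. Spermatocytes left in the sorted fraction and transcripts carried over from meiosis cannot be told apart on these arrays.

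Genes of spermiogenesis made up the largest rises, from regulators to structural proteins. Of 24 regulators 18 rose, 3 fell and 3 were not called (median 3.03). Fhl5, also called Act, a coactivator of CREM, was at the floor on all PGC arrays and at 14906, 14861 and 14994 units in round spermatids, at least 485-fold higher. Gtf2a1l, a germ cell form of the general transcription factor TFIIA, rose at least 377-fold, the cytoplasmic poly(A) polymerase gene Papolb 278-fold and Crem, a transcription factor gene of the postmeiotic program, at least 179-fold. Rfx2, a factor for ciliary genes, rose 24.6-fold. Elavl1, an RNA-stabilizing protein gene, fell 14.7-fold, and Tdrd5 and Hook1 fell too.

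Acrosome genes rose in 25 of 29, with 1 lower and 3 not called (median 7.19). Crisp2, which encodes a sperm-egg binding protein, was at 10.4, 36.0 and 4.68 units in PGCs and at 22850, 24734 and 22988 in round spermatids, at least 726-fold higher. Dkkl1 rose at least 472-fold, the protease inhibitor gene Spink2 at least 402-fold and Spesp1, of the equatorial segment, at least 389-fold. The 4 members that did not rise are vesicle traffic genes used in many cells. Vps54 fell (log2 -2.60), while Gopc (log2 -0.23), Agfg1 (log2 0.53) and Pick1 (log2 0.98) were not called.

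Sperm chromatin genes rose in 15 of 16 (median 8.49). The transition protein genes Tnp1 and Tnp2 were at the floor on all PGC arrays and reached 29579 to 33342 and 23235 to 25393 units, at least 1011-fold and 793-fold higher. Prm2 and Hmgb4, an HMG-box gene of spermatids, rose at least 924-fold and 768-fold. The linker histone gene H1f7 rose at least 291-fold, while the chromatin remodelling gene Chd5 rose 3.59-fold from 203 to 225 units. Rnf8, a histone ubiquitin ligase used throughout the body, was the single fall (5.50-fold).

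All 26 tested genes of the outer dense fibres, fibrous sheath and midpiece rose (median 8.0), as did 25 of 26 axoneme genes (median 6.16). Smcp, a cysteine-rich protein of sperm mitochondria, was at 23.2, 5.63 and 18.8 units in PGCs and at 25794, 25550 and 25746 in round spermatids, at least 836-fold higher. The fibrous sheath gene Akap3 rose at least 706-fold, the antizyme gene Oaz3 at least 693-fold and Spata19, of the midpiece, at least 620-fold. Gpx4, an antioxidant enzyme gene that all cells need, rose least in this list, from 7929 to 8287 units to 23944 to 26080 (3.09-fold). In the axoneme list the dynein light intermediate chain gene Dnali1 rose at least 239-fold, Meig1 230-fold, Spag6 at least 183-fold and Ttc25 at least 176-fold. Dnah11 fell 2.30-fold.

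Intraflagellar transport and basal body genes, which PGCs already expressed, rose less. Of 28 genes 20 rose, 0 fell and 8 were not called (median 1.76). Ift172 was at 541, 653 and 514 units in PGCs and at 9461, 11086 and 10787 in round spermatids, an 18.4-fold rise, with Kif3b (17.6-fold), a motor subunit, Bbs5 (17.4-fold) and Wdr35 (13.6-fold) close behind. Ift20 was at 1085 to 1132 units in PGCs and 994 to 1271 in round spermatids, which overlap. Sperm channel, kinase and energy genes rose in 23 of 26, with 2 lower and 1 not called (median 6.35). Pgk2 rose at least 586-fold, the spermatid kinase genes Tssk2 and Tssk6 at least 485-fold and 408-fold, and Ppp3r2, a calcineurin subunit, at least 351-fold. Hvcn1, the proton channel gene, fell at least 11.6-fold.

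**Figure D3:**
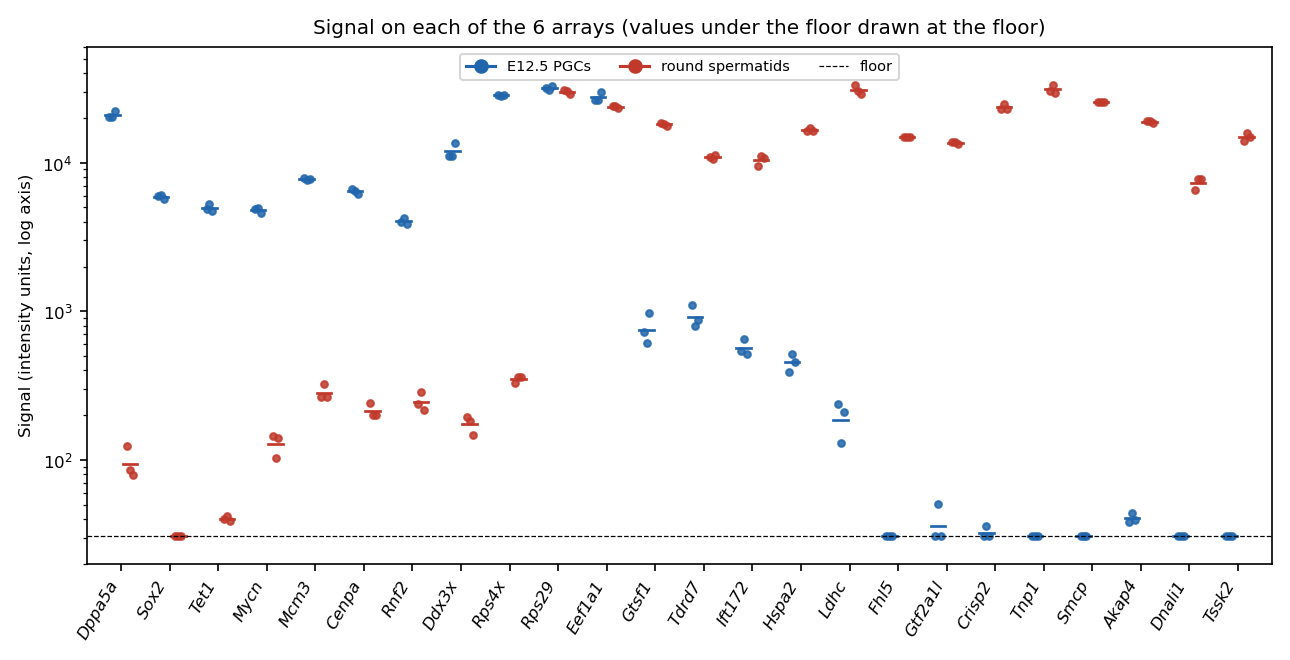
Signal of 24 genes on each of the 3 PGC and 3 round spermatid arrays, in intensity units on a log axis, with a bar at the mean of the log2 values and the floor of 30.7 units as a dashed line. Falling genes such as Tet1 and Rps4x and rising genes such as Tnp1 and Akap4 show no overlap of the groups, while Rps29 and Eef1a1 lie within 1.5-fold at both stages.

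Members of the lists were not left out of the following ranking. The 10 largest rises among genes measured above the floor on all 6 arrays were those of Spz1, Pdcl2, Prm1, Akap4, Catsperz, Ropn1l, Fabp9, Tmco2, Ropn1 and Fbp1. Spz1, a spermatogenic transcription factor gene, was at 32.6, 38.1 and 31.9 units in PGCs and at 22714, 23415 and 22353 in round spermatids (670-fold, log2 9.39, SE 0.09, limma adjusted p = 2.99e-10). Pdcl2, a phosducin-like gene, rose 599-fold, Prm1 515-fold, Akap4, an X-linked fibrous sheath gene, 467-fold, and Catsperz, an auxiliary subunit of the sperm calcium channel, 457-fold. The gluconeogenic enzyme gene Fbp1 rose 309-fold, from 56.8 to 95.4 units to 22734 to 24013.

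A further 651 genes lay at the floor on all PGC arrays. They passed the filter only through the spermatid arrays, so they had to differ, and their number supports nothing. Of these, 430 were above 437.5 units, the 75th percentile of the table, on all spermatid arrays. Spata4 was the furthest from the floor, at 31384, 33183 and 31942 units (at least 1046-fold). Gk2, a glycerol kinase gene, Hils1, a linker histone-like gene, Clec2m and Hspb9, a small heat shock protein gene, followed Tnp1, Smcp, Tnp2 and Hmgb4 at 732-fold, 696-fold, 651-fold and 596-fold at least. The order of folds from the floor is not settled.

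On the falling side 144 genes lay at the floor on all spermatid arrays, 32 of them above 437.5 units on all PGC arrays. These passed the filter only through the PGC arrays, so they too had to differ, and their number supports nothing. Behind Dppa5a, Tet1 and Etv5 (111-fold), an ETS factor gene of germline stem cells, the largest falls above the floor were those of Ifitm2 (93.4-fold), Dppa4 (89.2-fold), Rps4x (80.7-fold), Gpx1 (log2 -6.23), Ddx3x (68.3-fold), Aco1 (68.1-fold) and Rhox5. Gpx1, a glutathione peroxidase gene, was at 12713, 11106 and 12528 units in PGCs and at 148, 217 and 130 in round spermatids, while its relative Gpx4 rose. Aco1 encodes the cytosolic aconitase that senses iron. From above the floor to the floor went Hbb-y, Sox2, the kinase gene Mapk13 (at least 102-fold), Nanog, Rpl14 (at least 65.9-fold), Glrx (at least 51.7-fold), Trim12c, Agrn, Trub1 and Rhox6.

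Many widely used genes have a relative known from spermatogenesis or from another tissue, often a retrogene, and the stages exchanged the partners. Of 61 listed pairs 50 had both genes tested. In 26 pairs the first gene fell and the second rose, and in none did the reverse hold (22 and 0 under the poly-A spikes). In 9 more the second rose and the first was not called, in 7 the first fell and the second was not called, in 4 both rose and in 2 both fell. The pairs were listed with this pattern in mind and are a description. The second gene rose in 39 of 50 pairs and the first fell in 35, beside 33.8% and 38.9% of all genes, and the change of the second gene was above that of the first in 49 pairs, also under the spikes.

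Several pairs of energy metabolism were exchanged, though not all. Pgk1, the X-linked gene of the glycolytic phosphoglycerate kinase, was at 5514, 5535 and 5623 units in PGCs and at 556, 484 and 512 in round spermatids, a 10.8-fold fall. Its autosomal retrogene Pgk2 was at 23.1, 3.89 and 11.9 units in PGCs and at 17055, 18690 and 18369 in round spermatids. Pdha1, of pyruvate dehydrogenase and also X-linked, fell 27.2-fold, with the spermatid arrays at 288, 101 and 83.3 units, and its retrogene Pdha2 rose 114-fold. The mutase genes Pgam1 and Pgam2 changed by -4.37 and 7.58 on the log2 scale, and the monocarboxylate transporter genes Slc16a1 and Slc16a7 by -3.74 and 8.89. In Cycs and Cyct, and in Slc25a5 and Slc25a31, the first fell and the second was not called. In Aldoa and Aldoart1 only the second rose.

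Exchanged pairs were also found in other cell machinery. Txn1, a thioredoxin gene, fell 35.8-fold and Txndc2, its spermatid relative, rose at least 473-fold, the widest difference among the pairs. Gtf2a1 of TFIIA fell 10.5-fold beside the rise of Gtf2a1l. The actin capping gene Capza2 fell 7.74-fold and Capza3 rose at least 465-fold. Ppp3r1 of calcineurin fell 8.66-fold beside the rise of Ppp3r2.

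Exceptions stood on both sides. Ldha and Ldhc both rose (log2 4.16 and 7.37), and so did Ybx1 and Ybx2, Tbp and Tbpl1, and Ppp3ca and Ppp3cc. Dnmt3b and Dnmt3a both fell, as did Eif2s3x on the X and Eif2s3y on the Y chromosome. In Odf2 and Odf2l the first rose (log2 5.52) and the second was not called (log2 -0.39). Under the poly-A spikes Eif2s3y changed sign (log2 0.37). Cross-hybridization between close relatives was not tested.

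**Figure D4:**
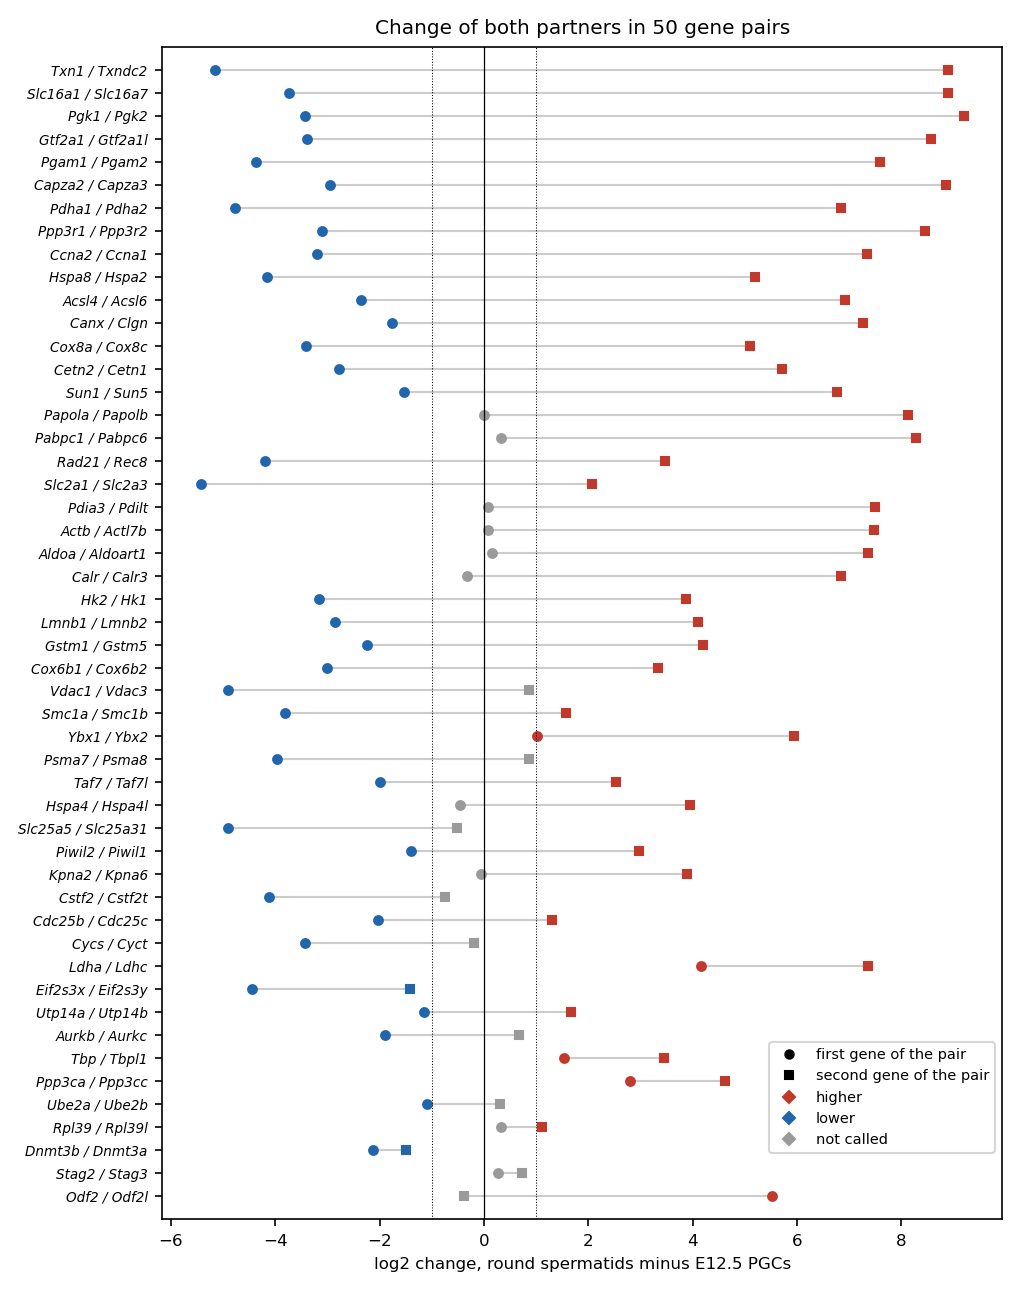
Log2 change (round spermatids minus PGCs) of the first (circle) and second (square) gene of 50 related pairs, joined by a line, ordered by the difference and coloured by call, with dotted lines at 2-fold. In 26 pairs a lower circle stands left of 0 and a higher square right of it; Odf2 and Odf2l run the other way, and under the poly-A spikes 22 pairs keep these calls.

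Some genes were near equal at both stages. The 95% interval of the change lay within 1.5-fold either way for 862 genes (6.65%) and within 2-fold for 2171 (16.8%). The 8 brightest of the former were Rps29, Rps20, Dynll1, Eef1a1, Rps28, Tpt1, Hsp90aa1 and Pabpc1. Rps20 was at 25854, 26930 and 27592 units in PGCs and at 25694, 25961 and 26444 in round spermatids, where the groups overlap. Eef1a1, the elongation factor gene, was at 26433 to 29675 and 23394 to 24138 units (log2 -0.21, SE 0.05). These genes are equal only on the authors' scale, and under the poly-A spikes Rps20 stood at a log2 change of 1.75 and Eef1a1 at 1.58.

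Cytosolic ribosomal protein genes as a family were lower in 25 of 41 and higher in none (median -1.16, and 0.63 under the poly-A spikes). They did not move as a block. Rps4x fell from 28033 to 28526 units to 331 to 363, an 80.7-fold fall (log2 -6.33, SE 0.05, limma adjusted p = 2.89e-10), and Rpl12, Rps6 and Rpl10a fell by 4.70, 3.89 and 3.44 on the log2 scale, while Rpl41 (log2 -0.17) and Rps29 (log2 -0.09) held. Rpl39l, the testis form of an exit tunnel protein, was not counted among these 41 and rose (log2 1.12). Mitochondrial ribosomal proteins fell in 43 of 76 and rose in 1 (median -1.13), proteasome subunits in 22 of 39 with 4 higher (median -1.09), splicing factors of the Srsf, Sf3 and Snrp families in 21 of 27 with none higher (median -1.53) and aminoacyl tRNA synthetases in 21 of 31 with 3 higher (median -2.11). Under the poly-A spikes the medians of these 4 families were 0.66, 0.70, 0.26 and -0.38, so the sign of all but the synthetases turned. Zinc finger Zfp genes fell in 144 of 283 and rose in 53 (median -1.07, and 0.71 under the spikes).

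X-linked genes were lower in round spermatids more often than autosomal genes. Meiotic silencing of the sex chromosomes and its partial persistence after meiosis is a known feature of this stage. Of 427 X-linked genes 249 (58.3%) fell and 88 (20.6%) rose, against 38.3% and 34.0% of 12441 autosomal genes. The share of falls on single autosomes ran from 33.9% to 43.3%, so the X lay outside that range. The median change was -1.65 on the X and -0.23 on autosomes (0.14 and 1.56 under the poly-A spikes, where the gap was kept and the sign turned). Falls of 16-fold or more made up 12.4% of X-linked and 3.62% of autosomal genes, with 2.38% to 4.72% on single autosomes. Rises of 16-fold or more were as common on the X (11.7%) as on autosomes (11.4%, range 10% to 13%). These are shares of genes on 6 arrays, without a test, since genes are not independent replicates.

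The 6 largest X-linked falls were those of Rps4x, Amot (at least 76.2-fold), Ddx3x, Rhox5, Pola1 and Atrx (53.6-fold). Ddx3x, an RNA helicase gene, was at 11160, 11054 and 13642 units in PGCs and at 196, 183 and 148 in round spermatids, and the chromatin remodeller gene Atrx went from 5264 to 5826 units to 72.0 to 134. The 6 largest rises were those of Tsga8 (at least 606-fold), Akap4, Tmsb15a (at least 334-fold), Cypt1, a basic nuclear protein gene (at least 307-fold), H2ap (at least 237-fold) and Ppp1r2-ps7 (at least 189-fold). Akap4 was at 38, 43.9 and 39.8 units in PGCs and at 19021, 19173 and 18517 in round spermatids. In 10 of the 12 pairs whose first gene is X-linked that gene fell, and in 6 of them the partner elsewhere rose.

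Of 8 tested Y-linked genes 4 fell, 3 rose and 1 was not called. The histone demethylase genes Kdm5d and Uty fell at least 15.9-fold and 6.46-fold. Uba1y, a ubiquitin-activating enzyme gene, fell 3.86-fold, and Eif2s3y, needed for spermatogonial division, 2.68-fold. Zfy2, which promotes the meiotic divisions and sperm formation, was at 154, 218 and 202 units in PGCs and at 481, 446 and 499 in round spermatids, a 2.51-fold rise. Orly and Tspy-ps rose 3.30-fold and at least 4.80-fold to under 330 units, and Usp9y was not called (log2 -0.62).

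Runs of neighbouring tested genes called in 1 direction reached 11 genes (chromosome 4, lower, around Lin28a, median -1.68) and, on the X, 10 genes. That X run held the Armcx5, Gprasp1, Gprasp2, Bhlhb9, Bex2, Bex4, Tceal8, Bex1, Tceal9 and Bex3 genes, all lower with a median of -3.73. Another on the X ran over 9 genes from Maged2 to Hsd17b10 (median -3.0). Among rising runs, 8 neighbours on chromosome 15, Sco2, Odf3b, Syce3, Chkb, Mapk8ip2, Arsa, Acr and Rabl2, had a median of 4.51 and include the gene of the acrosomal protease acrosin. The falling runs are among the longest, while this rising run was picked with its values in view, as the one with the highest median among the 4 rising runs of 8 or 9 genes. Neighbours can overlap or share a promoter. With 38.9% of all genes and 58.3% of X-linked genes lower, and 33.8% of all genes higher, runs can arise from these shares alone. Whether any run was longer than these shares give was not tested. The run medians were not computed under the poly-A spikes.

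Markers of other cells were measured beside these results. Among blood markers the embryonic globin gene Hbb-y was at 11299 to 12097 units on PGC arrays and at the floor on all spermatid arrays, which places it among the largest falls (at least 379-fold), and the blood sum was 12085 to 12871 against 131 to 330. Hba-a1 was at the floor on all 6 arrays and Ptprc on the PGC arrays. The stroma sum of 8 genes was 4220 to 5055 units in PGCs and 2214 to 2560 in round spermatids, and the Sertoli sum of 8 genes 1384 to 1814 and 1060 to 1346. The mixed list of blood, macrophage and endothelial genes had 9 tested of 19 on the arrays, with 5 lower and 3 higher (median -1.04, and 0.75 under the poly-A spikes). Spermatogonium markers summed to 15477 to 17301 units in PGCs and 2417 to 2497 in round spermatids. Among them Id4, Etv5, Dmrt1 and Uchl1 fell, Gfra1 (2.15-fold) and Sohlh1 (at least 3.99-fold) rose, and Zbtb16 and Neurog3 were not called. Endothelial markers summed to 1366 to 1756 and 374 to 418 units. Most of their PGC sum was Pecam1 (1106 to 1459 units), which is also a gene of PGCs. Cdh5 fell 2.06-fold, Kdr rose 2.98-fold and Tek was under the filter. Macrophage genes summed to 227 to 253 and 581 to 686 units, with Csf1r and Adgre1 higher (2.77-fold and at least 5.52-fold). Cd68 and Lyz2 were under the filter. Cd68 was at 60.4 to 96.2 units in PGCs and 27.9 to 78.3 in round spermatids, and Lyz2 at 20.2 to 52.8 and 46.0 to 171. The part of all these markers in the other results was not tested.

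Lists of somatic cells had more falls than rises. Stroma and peritubular genes were lower in 11 of 19 and higher in 3 (median -1.59, and 0.20 under the poly-A spikes). Fn1 fell 14.6-fold from 5984 to 6715 units, Tcf21 10.5-fold, Pdgfra 10.5-fold (9.66-fold from mean signals) and Maf at least 7.51-fold, while the smooth muscle gene Acta2 rose 2.15-fold. Sertoli and supporting cell genes fell in 9 of 13 tested of 20 on the arrays (median -1.23, and 0.33 under the spikes), with Inhbb at least 7.17-fold and Wt1 4.88-fold lower and the cystatin gene Cst12 12.8-fold higher. Of 6 Leydig genes tested, from 9 on the arrays, 4 fell, among them Hsd3b1 (7.46-fold, or 7.31-fold from mean signals) and Cyp11a1, whose change of 2.03-fold passed narrowly (median -1.44, and 0.35 under the spikes). Without PGC replicate 3 or round spermatid replicate 2 the log2 change of Cyp11a1 was -0.92 or -0.90 and it was not called. Mesonephros and coelomic epithelium genes fell in 4 of 6 tested and rose in 1 (median -1.63, and 0.09 under the spikes). Cdh1, listed among them but also a PGC adhesion gene, fell at least 157-fold from 4972 to 5296 units. Spermatogonia genes fell in 11 of 19 and rose in 5 (median -1.75, and 0.03 under the spikes), with Cd9 lower (23.7-fold) and Dmrtb1, which governs the entry into meiosis, 208-fold higher.

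Stress and immediate early genes, which can respond to dissociation and sorting, were lower in 10 of 20, higher in 1 and not called in 9 (median -0.92, and 0.87 under the poly-A spikes). Ier2 fell 11.4-fold, Hspa1b 11.1-fold and Klf6 7.38-fold. Ddit3, a gene of the unfolded protein response, rose 13.2-fold, from 167 to 187 units to 2303 to 2481.

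The genes that rose differed from the rest in the sequence around their start sites, a property that the comparison did not use. Windows of 250 bases before to 50 bases after the start (RefSeq, GRCm38.p6, the window listed at the top where a gene has several) were matched by gene identifier or symbol to 10519 of the 12953 genes tested (81.2%). CpG content is given as the observed number of CG dinucleotides over that expected from the C and G content, where values under 0.4 mark CpG-poor windows. Of the genes in CpG-poor windows 60.7% rose and 20.7% fell (1932 genes, median log2 change 2.04), while at 0.8 or more 25% rose and 44.1% fell (4447 genes, median -0.67). CpG-poor windows made up 18.4% of all genes tested, 33.2% of rises, 48.1% of rises of 16-fold or more and 9.69% of falls. Among all 27025 windows, tested or not, they made up 51%. Genes that passed the filter on low signals only through the spermatid arrays had to be higher there. The part of the filter in these shares was not tested. Under the poly-A spikes the CpG-poor class and that at 0.8 or more had medians of 3.32 and 1.12. In them 76.9% and 52% rose and 7.5% and 15% fell.

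**Figure D5:**
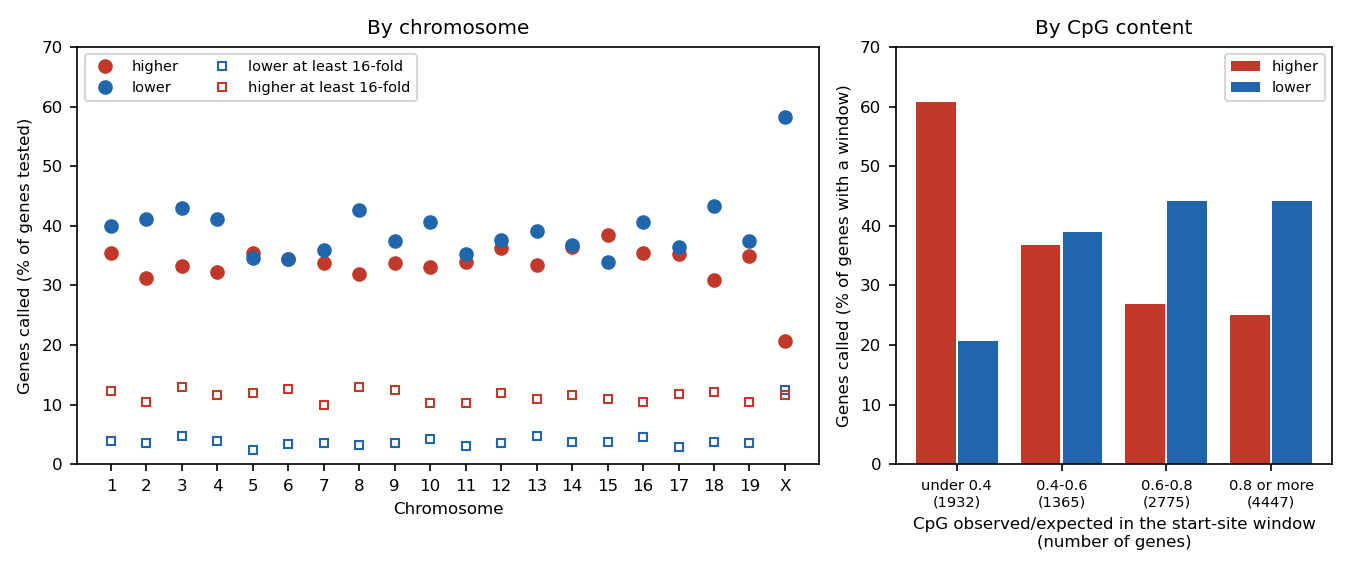
Left, share of genes tested on each chromosome that were called higher or lower in round spermatids (filled circles) and at least 16-fold so (open squares); right, share of genes called higher or lower by the CpG observed over expected ratio of the start-site window, with the number of genes. The X chromosome has 58.3% lower genes against at most 43.3% on an autosome, and the share of higher genes drops from 60.7% in CpG-poor windows to 25% in the richest (76.9% and 52% under the poly-A spikes).

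The windows of 10 genes, picked as examples of the contrast, are shown. The 150 bases before the start are printed 5' to 3' on the gene's strand, with every CG in capitals. Those of 4 of the largest rises come before the others, chosen because their lists rose almost whole.
Prm1: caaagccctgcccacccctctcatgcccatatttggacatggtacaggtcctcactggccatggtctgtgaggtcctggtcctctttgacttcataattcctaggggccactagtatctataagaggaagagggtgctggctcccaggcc
Tnp1: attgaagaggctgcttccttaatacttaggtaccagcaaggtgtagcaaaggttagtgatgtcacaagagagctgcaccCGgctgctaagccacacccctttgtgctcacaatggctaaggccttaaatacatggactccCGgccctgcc
Tnp2: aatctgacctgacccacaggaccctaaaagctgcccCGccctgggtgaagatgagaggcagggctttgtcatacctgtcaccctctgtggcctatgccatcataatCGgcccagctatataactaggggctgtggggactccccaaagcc
Smcp: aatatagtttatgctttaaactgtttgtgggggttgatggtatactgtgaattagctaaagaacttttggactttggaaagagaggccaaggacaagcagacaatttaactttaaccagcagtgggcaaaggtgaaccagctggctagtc

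Prm1 (chr16:10796824-10796973, minus strand) and Smcp (chr3:92589074-92589223, minus strand) hold no CG in these bases, and Tnp1 (chr1:73015900-73016049, minus strand) and Tnp2 (chr16:10788656-10788805, minus strand) hold 2 each. Over the whole window their ratios are 0.049, 0.0, 0.31 and 0.17. The next windows are those of exchanged pairs, with the X-linked gene above its retrogene.
Pgk1: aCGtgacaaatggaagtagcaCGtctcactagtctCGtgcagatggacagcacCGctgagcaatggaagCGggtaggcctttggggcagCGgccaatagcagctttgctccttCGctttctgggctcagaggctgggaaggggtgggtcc
Pgk2: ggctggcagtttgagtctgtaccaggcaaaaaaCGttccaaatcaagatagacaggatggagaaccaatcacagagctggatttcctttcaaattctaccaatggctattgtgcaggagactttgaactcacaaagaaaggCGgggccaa
Pdha1: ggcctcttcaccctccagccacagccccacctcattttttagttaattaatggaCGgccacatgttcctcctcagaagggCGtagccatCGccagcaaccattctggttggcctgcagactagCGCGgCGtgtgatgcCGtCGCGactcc
Pdha2: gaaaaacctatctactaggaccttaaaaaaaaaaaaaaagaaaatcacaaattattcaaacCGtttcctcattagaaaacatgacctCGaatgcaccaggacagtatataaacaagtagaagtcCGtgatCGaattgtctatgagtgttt

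Pgk1 (chrX:106186950-106187099, plus strand) holds 7 CG and Pgk2 (chr17:40208610-40208759, minus strand) 2, and Pdha1 (chrX:160138431-160138580, minus strand) holds 9 and Pdha2 (chr3:141212356-141212505, minus strand) 4. The ratios over the window are 0.72 and 0.29 for the kinase pair and 0.74 and 0.61 for the dehydrogenase pair, where Pdha2 has few C and G at all (29.7% against 62.0%). Of 13 exchanged pairs with both windows, the first gene had the higher ratio in 10. The second gene had it in Smc1a and Smc1b, Utp14a and Utp14b, and Gstm1 and Gstm5. The median was 0.86 for the genes that fell and 0.43 for those that rose, and 6 of the latter but 0 of the former were CpG-poor. Over all 28 pairs with both windows, whatever their calls, the first gene had the higher ratio in 18. There the medians were 0.85 for first and 0.69 for second genes, and 0 first and 7 second genes were CpG-poor. The last windows belong to falling genes of DNA demethylation and replication.
Tet1: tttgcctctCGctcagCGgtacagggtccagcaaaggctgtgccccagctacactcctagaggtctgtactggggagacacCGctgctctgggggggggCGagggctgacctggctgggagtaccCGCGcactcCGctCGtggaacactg
Mcm5: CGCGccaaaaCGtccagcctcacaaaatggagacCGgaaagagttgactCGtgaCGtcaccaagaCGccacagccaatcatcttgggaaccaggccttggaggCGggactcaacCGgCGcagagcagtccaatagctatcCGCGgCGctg

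Tet1 (chr10:62887325-62887474, minus strand) holds 8 CG and Mcm5 (chr8:75109359-75109508, plus strand) 13. Mcm5 fell by 3.78 on the log2 scale. By list, the median ratio was 0.17 for tail and midpiece genes, 0.29 for sperm chromatin and 0.40 for sperm channels, but 0.60 for the axoneme and 0.74 for intraflagellar transport, so the rising lists were not alike. The median ratio was 0.86 for replication and 0.84 for ribosome biogenesis. Lists with mostly falls were not alike either, at 0.55 for pluripotency (16 windows), 0.26 for stroma (12) and 0.22 for Sertoli cells (7). Late meiosis and regulators of spermiogenesis, which mostly rose, stood at 0.74 and 0.88.

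Short motifs were searched on both strands of the windows, as letters only. The full CRE, TGACGTCA, which CREB-family factors such as CREM bind, was in 2.89% of windows of rising genes, 3.04% of falling genes, 3.19% of all genes tested and 1.88% of all 27025 windows in the table. The GC box GGGCGG was in 49.2% of rising, 69.2% of falling and 61.3% of all tested genes (35.9% of all windows). The motif holds a CG itself, and whether its share differs at equal CpG content was not tested. GTTGCC, the half-site of RFX factors, was in 17.1% of rising genes, 20.6% of those rising 16-fold or more, 11.1% of falling genes and 13.5% of all tested (12.7% of all windows). The E2F motif, TTTGGCGC or TTTCCCGC, was in 2.04% of rising and 3.72% of falling genes (3.02% of all tested, 1.63% of all windows). The CRE and the E2F motif also hold a CG, and their shares at equal CpG content were not tested either. CCAAT was equally common in rising and falling genes (38.7% and 39.5%, with 38.9% of all tested and 37.9% of all windows). A match is not a binding site, and a window without one says nothing of the factor. Rising genes of 16-fold or more were also shorter, with a median genomic length of 16.9 kb against 22.9 kb for all genes with a window and 24.9 kb for falling ones.

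For some genes the call depends on the probe set. Of 22160 probe sets tested 72.3% were called, and of 3639 genes with several called probe sets 478 (13.1%) had calls in both directions, 200 of them with a probe set whose name marks possible matches to several transcripts. By the brightest probe set 288 of the 478 were called higher and 134 lower. The widest gap was in Eif4e, the cap-binding protein gene. A probe set was at 40.1, 17.0 and 28.4 units in PGCs and at 4807, 4975 and 5194 in round spermatids, another at 3205, 2954 and 3008 and at 256.5, 300.7 and 255.3, and the brightest was not called (log2 -0.16). Slc9b1, a sperm sodium and proton exchanger gene, Ltn1, Atl3, Cdyl and Pde4dip followed. In Cdyl, a chromodomain gene of spermatid chromatin, the probe set changes were 4.45 and -4.30 on the log2 scale. In Atl3 they were 5.80 and -3.12. Probe sets of a gene can lie in different 3' ends or exons, and which transcripts these bind was not tested. With the mean of probe sets in place of the brightest, 46 genes were called in the opposite direction. The counts of all genes were then 4124 higher and 5215 lower.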

How the data were processed

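RNA of 3 PGC and 3 round spermatid samples was measured on 1-colour Affymetrix 3' arrays. The authors deposited linear intensity values for 45101 probe sets, made with MAS5 per the submitters' processing notes, with each array at a trimmed mean of 500 units. Further settings are not given in the sources used here. The number of arrays limits the precision.

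Values under the 25th percentile (30.7 units) were set to it before log2. Of the probe sets, 64 controls, 932 with several symbols and 9160 with none were left out, and the rest were kept if above the table median (92.0 units) on at least 3 of the 6 arrays (22160). The 6 arrays were fitted alone with limma 3.58.1 (R 4.3.3, lmFit, eBayes with an intensity trend). The fit was tested on simulated data. The replicate numbers did not pair the arrays (correlations of deviations -0.061, -0.029 and -0.008).

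Members, lists and pairs were chosen with earlier results of these data known. Genes were named by rule: the 10 largest rises and falls above the floor, and from it; the 4 largest changes of each list; the 8 widest pairs; the 6 largest X-linked rises and falls and all Y-linked genes; the 6 widest probe set conflicts; and the 8 brightest held genes. Clone names were left out of the largest rises and falls. All further genes were picked with their values in view. Promoter windows and gene names come from RefSeq. Sequence motifs and CpG content were counted without a test. Alternatives covered the array scaling, floor, filter, probe set choice, fit, fold limit, a block for the replicate number and each array left out.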

Additional observations from a re-analysis of the deposited data

How the results depend on the processing

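The counts of 4381 higher and 5033 lower genes stayed within 1.5 times under 18 of 19 alternatives. The exception was scaling to the poly-A spikes, chosen after seeing the data, with 7450 higher and 1855 lower and 80.1% of calls higher against 46.5%. Without each array in turn, 4317 to 4392 genes were higher and 4951 to 5110 lower. A replicate block, although the numbers do not pair the arrays, gave 4388 higher and 5038 lower.

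Of 177 named genes, 157 kept direction and call, 8 lost and 2 gained the call, and 10 changed sign under the poly-A spikes: Cyp11a1 (log2 0.77), Eef1a1 (1.58), Eif2s3y (0.37), Eif4e (1.63), Hsp90aa1 (1.72), Rps20 (1.75), Rps28 (1.38), Rps29 (1.7), Tpt1 (1.73) and Usp9y (1.17). With the mean of probe sets, Atl3 (-0.23), Cdyl (-1.07) and Pabpc1 (-1.56) changed sign. Of 54 counts of genes per list, 35 moved by over 1.5 times under the spikes, and 13 with a filter at the 75th percentile. Cyp11a1 also lost its call without PGC replicate 3 or round spermatid replicate 2, under median centring, quantile normalization, a pseudocount of 16 and limma's test against 2-fold. Signals near the floor limit the size of the largest folds.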
